A study of Homo sapiens with 6 samples.

Results

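The regions described here are the 4598 promoter-distal stretches of the HL-60 genome that carried a SUMO-2/3 peak in mock-treated cells and in cells given cytarabine (Ara-C), and no peak in cells given daunorubicin (DNR). They were chosen by position in the 3 deposited peak lists, out of 139091 regions obtained by merging overlapping or touching peaks. A region was kept when its midpoint lay more than 1 kb from every transcription start site (TSS) of a protein-coding gene. The first and last 1 Mb of each chromosome and a 10 Mb part of the long arm of chromosome 8 were left out. Of the 6619 merged regions with the mock and Ara-C pattern, 6242 lay outside the left-out parts, and 1644 of those were promoter-proximal.

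HL-60 is an established acute myeloid leukemia line. Mock cells received water, and the others received 2 µM Ara-C or 1 µM DNR, each for 2 h before fixation. Chromatin was immunoprecipitated with a SUMO-2/3 antibody, and 3 biological replicates were pooled into 1 sequenced library per condition. No replicate spread can therefore be computed, no test between conditions was possible, and every interval below is a 95% interval for the count of regions alone. The lists give positions without heights or read counts, so depth is unknown. Only the 3 SUMO-2/3 samples have lists among the 6 samples, the others being input DNA.

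SUMO-2 and SUMO-3 are small ubiquitin-like proteins that are attached to lysines of other proteins by an E1, E2 and E3 enzyme cascade and taken off again by SENP proteases. Many of the modified proteins are transcription factors, co-regulators and chromatin proteins, so a SUMO-2/3 ChIP-seq peak marks DNA near which modified proteins sit, without naming them. Promoter-distal peaks can fall on enhancers, on insulators bound by CTCF or on other elements. DNR is an anthracycline that intercalates into DNA and poisons topoisomerase II, and Ara-C is a nucleoside analog incorporated during replication.

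The absence of a DNR peak means that no stretch of the DNR track passed the calling rule, not that SUMO-2/3 was absent. Across the genome 44265 peaks were listed for mock, 72279 for Ara-C and 33355 for DNR. Of the 5158 distal regions with both a mock and an Ara-C peak, 89.1% had no DNR peak, and the same held for 92.1% of the 1785 promoter-proximal ones. The distal share is what the choice of regions fixes and is read here as a description. The regions made up 12.2% of the 37748 distal regions with a mock peak. A further 31971 of these 37748 had neither an Ara-C nor a DNR peak. Lacking a DNR peak was thus usual among distal mock regions and not particular to those with an Ara-C peak. Just inside the distance limit were regions at 1010 bp from the start of RAB11FIP1 and of SCN8A, and just outside it were regions at 1000 bp from HJV and at 996 bp from LAPTM5 and CARD9.

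The clearest sequence feature of the 4598 regions was the core of the CTCF motif. CTCF is a zinc finger protein that marks insulators and the anchors of chromatin loops. The core, searched on both strands without a mismatch, lay in 492 regions, or 10.7% (9.84 to 11.6%). In pairs of equally wide stretches 2 kb to either side it lay in 0.130%. The sequences of the 6 widest of the regions considered for display are shown with 20 bases on either side because they carry this feature. Capitals mark the matched core, sequences run 5′ to 3′ on the given strand, and coordinates are those of GRCh37 (hg19). Each line is headed by the gene with the nearest coding TSS.
ZNF131 chr5:43105971-43106024 plus strand: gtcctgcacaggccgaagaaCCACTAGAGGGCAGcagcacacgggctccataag
FGF1 chr5:142092818-142092871 plus strand: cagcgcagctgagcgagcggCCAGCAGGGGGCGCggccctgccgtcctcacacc
SH3BGRL3 chr1:26611726-26611779 plus strand: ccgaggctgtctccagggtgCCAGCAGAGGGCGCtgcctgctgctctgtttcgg
EIF4B chr12:53374755-53374808 minus strand: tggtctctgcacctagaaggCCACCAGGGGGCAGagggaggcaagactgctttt
CETP chr16:56998591-56998644 plus strand: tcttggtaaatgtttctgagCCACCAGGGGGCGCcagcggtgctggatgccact
CEACAM5 chr19:42210725-42210778 plus strand: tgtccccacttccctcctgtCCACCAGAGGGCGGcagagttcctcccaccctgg

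The ZNF131 region lay 15.2 kb upstream of the gene's nearest start, with a mock peak of 400 bp and an Ara-C peak of 700 bp. The FGF1 region lay 15.4 kb upstream of a start of this growth factor gene, and a DNR peak began 0.1 kb from its edge. The region nearest to SH3BGRL3 lay in an intron of the neighbouring gene UBXN11, that at CETP in an intron of CETP itself, and those near EIF4B and CEACAM5 outside the basic coding transcripts. The CETP region had its closest DNR peak 71.6 kb away. Among these 6, distance to a DNR peak therefore ranged from 0.1 kb to 71.6 kb.

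The cores sat close to the middle of the regions. The median distance between core and region midpoint was 32 bp, and 68.9% of the cores were within 50 bp of the midpoint, where an even placement in these regions would put 35.8%. Both strands were used about equally, with 250 cores on the plus and 242 on the minus strand. Only 1 region held more than 1 core. With 1 mismatch allowed, 30.4% of the regions matched.

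Compared with other distal regions, the core was more frequent than in regions called in mock alone and less frequent than in regions called in all 3 lists. Counted in 200 bp around each midpoint, so that the searched length was the same, it lay in 9.68% of the 4598 regions. It lay in 14.5% of the 560 distal regions in all 3 lists and 1.38% of the 31971 distal regions called in mock alone. In the promoter-proximal regions with the same pattern it lay in 3.10%. The difference to the regions in all 3 lists was -4.79 percentage points (-8.05 to -1.97). The classes still differed in peak width. Median mock widths were 200 bp in the 4598 regions and 250 bp in all 3 lists. In mock alone the median was 150 bp, the shortest width called. The part of width in differences from the mock-only regions was not tested. Across 1379031 windows placed every 2 kb over the distal genome, the core lay in 0.0338%. Among all distal regions with mock and Ara-C peaks, those with the core lacked a DNR peak in 84.6% (81.3 to 87.4%) and those without it in 89.7% (88.7 to 90.5%).

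The lower CTCF share of the regions without a DNR peak was also seen when mock peaks of one width were compared, although the intervals overlapped at 3 of the 4 widths. At a mock width of 150 bp the core lay in 7.65% of the regions without a DNR peak and 9.41% of those with one. At 200 bp the shares were 10.8% and 15.7%. At 250 bp they were 10.8% (8.80 to 13.2%) and 24.1% (17.0 to 32.9%), and at 300 bp or more they were 9.59% and 11.7%.

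Motifs of myeloid transcription factors were counted in the same windows. PU.1, encoded by SPI1, is an ETS factor that directs myeloid differentiation, RUNX1 and the C/EBP factors act with it at many myeloid enhancers, and AP-1 dimers bind enhancers in most cell types. The letters GAGGAAGT of PU.1 lay in 3.72% (3.21 to 4.31%) of the 200 bp windows of the 4598 regions, in 0.968% of their flanks and in 1.25% (0.607 to 2.56%) of the regions in all 3 lists. The difference to the latter was 2.47 points (1.07 to 3.34), but that share rests on 7 regions. The RUNX letters TGTGGTT lay in 8.39%, against 3.68% of flanks and 5.89% of regions in all 3 lists, a difference of 2.50 points (0.11 to 4.37). At mock widths of 300 bp or more, which hold 265 of the 560 regions in all 3 lists, the RUNX shares were 9.30% and 9.06%. Regions called in mock alone stood at 1.77% for PU.1 and 4.65% for RUNX. The GATA letters AGATAA went the other way, with 9.63% of the 4598 regions against 11.0% of their flanks and 13.1% of the regions in mock alone, a difference to the latter of -3.51 points (-4.41 to -2.55). These letters are mostly A and T. The median GC content of the 200 bp windows was 51.5% in the 4598 regions and 43.5% in mock alone. The part of base content in the motif shares was not tested.

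The E-box CAGCTG, bound by SCL and its partners, lay in 15.5% of the 4598 regions, 9.04% of their flanks and 11.6% of the regions in all 3 lists, a difference of 3.86 points (0.77 to 6.48). The C/EBP letters TTGCGNAA lay in 1.39% and 0.714%, a difference of 0.68 points (-0.47 to 1.26). The AP-1 letters TGANTCA lay in 9.44% and 6.96%, a difference of 2.47 points (-0.07 to 4.50), and in 5.57% of the flanks. The intervals of the C/EBP and AP-1 differences include 0, which does not show that the shares are alike. Among all distal mock and Ara-C regions, 171 of 178 with the PU.1 letters had no DNR peak, or 96.1% (92.1 to 98.1%), and 386 of 419 with the RUNX letters, or 92.1% (89.1 to 94.3%), beside 89.1% of all of them. The NF-kB letters GGGANTTCC stood at 95.5% (63 of 66) and the C/EBP letters at 94.1% (64 of 68), near the PU.1 value, and the AP-1 letters at 91.8% and the E-box at 91.6%, near the RUNX value.

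Motifs typical of promoters were scarcer at the distal regions than at the proximal ones. The GC box GGGCGG, bound by SP and KLF factors, lay in 11.6% of the distal and 41.1% of the proximal windows. The ETS letters CCGGAAGT lay in 0.652% and 6.87%. The PU.1 and ETS letters share their end GGAAGT. Of the 171 regions with the PU.1 letters, 11.7% also had the RUNX letters, 2.92% the C/EBP letters, 9.36% the AP-1 letters and 1.75% the CTCF core, beside 8.39%, 1.39%, 9.44% and 9.68% of all 4598 regions. These shares rest on 20, 5, 16 and 3 regions. None of the CTCF, PU.1, RUNX, C/EBP and AP-1 motifs was found in 3245 regions. A match is a run of letters, not evidence of binding, and the absence of one says only that these letters are not in the window.

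**Figure D1:**
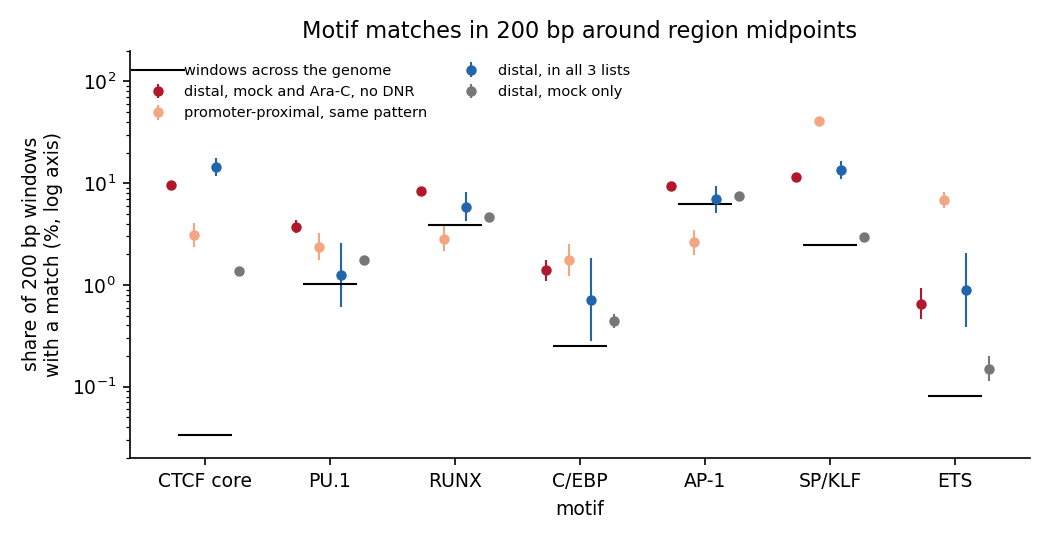
Share of 200 bp windows holding each motif (log axis), with 95% Wilson intervals, for the 4598 distal regions without a DNR peak, the 1644 promoter-proximal regions of the same pattern, the 560 distal regions in all 3 lists and the 31971 in mock alone; black bars are windows across the distal genome. The CTCF core reaches 9.68% in the 4598 regions against 0.0338% across the genome, and the PU.1 letters reach 3.72% against 1.03%.

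The regions next to 3 genes of the lists are shown in full. All measure 300 bp, as do other regions near list genes, and 2 of them are shown because they carry a PU.1 match, while EGR1 is shown as a GC-rich region close to a start. Capitals mark the PU.1 letters, which lie on the minus strand in both cases and so read as their reverse complement. The EGR1 region held neither these letters nor the CTCF core.
EGR1 chr5:137799751-137800050 plus strand: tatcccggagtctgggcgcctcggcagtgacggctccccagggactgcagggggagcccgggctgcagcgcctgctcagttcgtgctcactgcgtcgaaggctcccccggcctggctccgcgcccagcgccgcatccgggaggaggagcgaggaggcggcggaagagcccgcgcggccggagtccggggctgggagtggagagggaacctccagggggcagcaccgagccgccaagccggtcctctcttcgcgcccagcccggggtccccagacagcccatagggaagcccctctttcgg
IKBKE chr1:206641301-206641600 plus strand: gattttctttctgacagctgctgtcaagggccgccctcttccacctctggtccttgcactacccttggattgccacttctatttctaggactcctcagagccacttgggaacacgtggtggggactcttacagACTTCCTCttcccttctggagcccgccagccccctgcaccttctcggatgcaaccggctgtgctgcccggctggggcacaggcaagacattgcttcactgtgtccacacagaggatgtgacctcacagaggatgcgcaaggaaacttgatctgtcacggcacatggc
ITGB2 chr21:46351101-46351400 plus strand: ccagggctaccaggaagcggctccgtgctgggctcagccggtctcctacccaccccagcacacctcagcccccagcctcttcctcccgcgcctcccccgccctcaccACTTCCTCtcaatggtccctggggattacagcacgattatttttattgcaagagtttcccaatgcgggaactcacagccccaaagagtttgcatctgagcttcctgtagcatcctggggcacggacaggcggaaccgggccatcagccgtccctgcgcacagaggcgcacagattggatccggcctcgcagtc

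EGR1 encodes an immediate-early zinc finger factor. Its region, 1.27 kb upstream of the start, had a mock peak of 150 bp and an Ara-C peak of 300 bp, a GC content of 73.7%, and its closest DNR peak 199 kb away. The IKBKE region, 2.37 kb upstream of this kinase gene of the NF-kB pathway, had peaks of 200 and 300 bp. The region at ITGB2, the gene for the β2 integrin chain, lay inside the annotated gene and 2.46 kb upstream of the nearest start of a basic transcript, and had peaks of 300 and 200 bp.

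The regions were short. The merged width had a median of 300 bp, a 5th percentile of 200 bp and a 95th percentile of 550 bp, and the widest measured 1900 bp. The mock and the Ara-C peaks each had a median width of 200 bp. The Ara-C peak was wider in 38.7% of regions, the mock peak was wider in 36.6%, and both were equally wide in 24.7%. Their centres were within 50 bp of each other in 50.8% and within 100 bp in 76.3%. In 278 regions, or 6.05%, the peaks only touched. The calling grid of 50 bp and the shortest peak of 150 bp limit how finely such widths can be read, since 24.2% of the mock and 23.5% of the Ara-C peaks were of the shortest width.

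**Figure D2:**
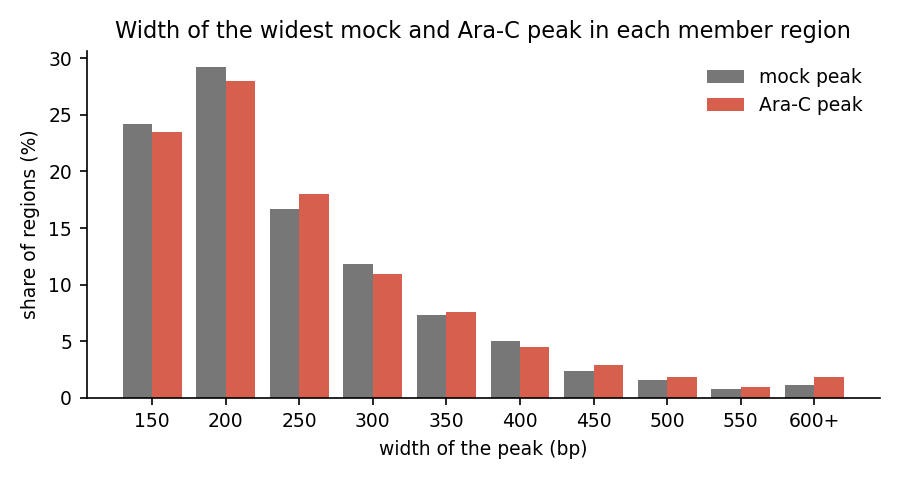
Share of the 4598 regions (%) by the width of their widest mock (grey) and Ara-C (red) peak in bp; the last pair of bars holds widths of 600 bp or more. Both distributions are highest at 200 bp, with 29.2% of mock and 28.0% of Ara-C peaks.

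Regions with a wider mock peak had a DNR peak more often. Of the distal mock and Ara-C regions, the share without a DNR peak was 92.9% at a mock width of 150 bp, 92.9% at 200 bp, 87.7% at 250 bp, 86.4% at 300 or 350 bp, and fell to 79.6% (76.3 to 82.6%) once the mock peak reached 400 bp. The mock peaks of the 560 regions in all 3 lists had a median of 250 bp. The width of a peak moves with how far the signal stands above the calling value, which the lists do not give.

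The widest regions lay near genes of varied function. The widest, 1900 bp, lay in an intron of RCC1, which encodes the exchange factor of the GTPase Ran, with a mock peak of 1050 bp and an Ara-C peak of 1900 bp. It lay 2.08 kb from the start of the small nucleolar RNA gene SNORA73B. The next, 1500 bp, covered an exon of LPO, the lactoperoxidase gene, with peaks of 1500 bp in mock and 1250 bp in Ara-C. The nearest start, 13.1 kb away, was that of MPO, the neighbouring gene of the granule enzyme myeloperoxidase. A region of 1400 bp upstream of ERN1, an endoplasmic reticulum stress sensor, lay 0.807 kb from the start of SNORD104, and 1 of 1400 bp nearest to SMIM47 covered an exon of ACP4. The others, from 1350 to 1050 bp, were nearest to MBP, SLC14A1, CITED2, CYTH4, GRK2 and STX11. None of these 10 held the CTCF core or the PU.1 letters in its central 200 bp. The region at CYTH4 had a DNR peak 0.25 kb from its edge, and for that at SMIM47 the closest DNR peak was 92.45 kb away.

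The median gap to the closest DNR peak was 15.9 kb (15.2 to 16.6 kb), compared with 20.2 kb for distal regions in mock alone and 20.03 kb for the proximal regions of the same pattern. Of the 4598 regions, 4.11% had one within 500 bp, and 37.5% within 10 kb. Between 1 and 5 kb from the midpoints there were 28.5 DNR peaks per Mb, 2.55 times the mean density of that list, and around the distal regions in mock alone the DNR density was 2.05 times the mean. Other mock peaks stood there at 53.9 per Mb, or 3.58 times their mean, and other Ara-C peaks at 72.0 per Mb, or 2.89 times. Around the 560 regions in all 3 lists the DNR density over the same distance was 78.8 per Mb, or 7.05 times the mean.

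**Figure D3:**
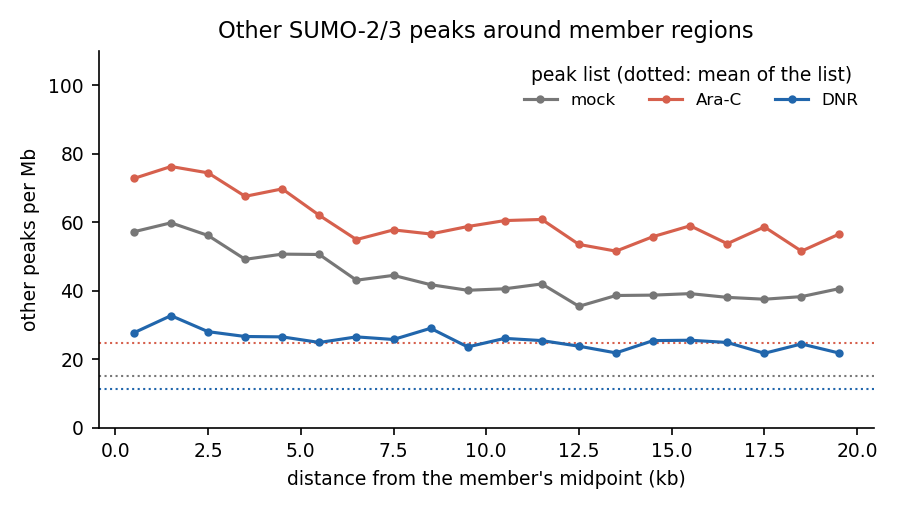
Density of other mock, Ara-C and DNR peaks (peaks per Mb) by distance from the midpoint of the 4598 regions in kb, the region's own peaks left out; dotted lines are the mean of each list. All 3 lists lie above their mean from 0 to 20 kb, with DNR at 27.7 per Mb in the first kb against a mean of 11.2.

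The regions were richer in GC than their surroundings, and far poorer in CpG than promoters. The median GC content was 50.6% (50.3 to 51.0%), against 45.7% in the flanks 2 kb away. Within regions the difference to the flanks had a median of 4.83 points and was positive in 73.9% of them. The proximal regions of the same pattern stood at 62.0%, the distal regions in all 3 lists at 52.9%, and the distal regions in mock alone at 43.3%. Windows across the distal genome had a median of 39.5%. A GC content above 60% was found in 17.5% of the distal and 59.7% of the proximal regions. The ratio of observed to expected CpG, low in most of the genome and high in the CpG islands of promoters, had a median of 0.279 in the distal and 0.792 in the proximal regions, and 14.2% of the distal regions exceeded 0.6 against 81.4% of the proximal ones.

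The GC rise was narrow. The mean over the 4598 regions was 52.7% next to the midpoint and 45.7% at the far left of the 2 kb profile. The share of distal mock and Ara-C regions without a DNR peak was 89.9% (87.0 to 92.1%) at a GC content up to 40%, 91.4% from 40 to 50%, 88.5% from 50 to 60% and 85.5% (83.1 to 87.6%) above 60%. Regions with the CTCF core had a median GC content of 55.3%, those with the PU.1 letters 50.3%, and those with the RUNX letters 47.9%. The response of sequencing to GC content could not be examined, since the lists hold no coverage.

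**Figure D4:**
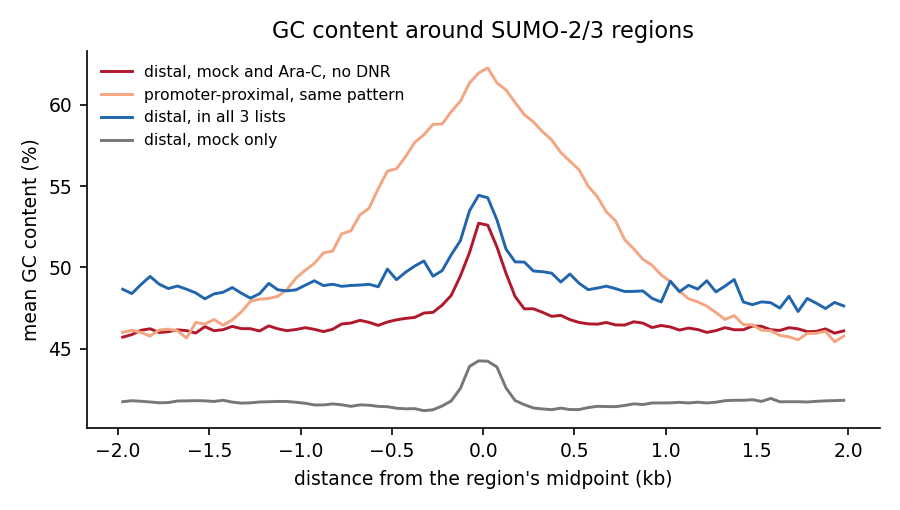
Mean GC content (%) in 50 bp bins by distance from the region's midpoint in kb for the 4 classes of regions. The 4598 distal regions (dark red) rise from 45.7% at the left edge to 52.7% at the midpoint, and the proximal regions (light) form a broader hill with 61.9% next to the midpoint.

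The midpoints of the regions were outside the basic coding transcripts, here called intergenic even where a longer annotated gene covers them, in 55.7% (54.3 to 57.2%), intronic in 38.5% (37.1 to 39.95%) and exonic in 5.72% (5.08 to 6.43%). Across the distal genome the shares were 57.8%, 39.8% and 2.43%. The distal regions in all 3 lists were intronic in 30.9%, 7.65 points less often (3.46 to 11.6). Those in mock alone were intronic in 42.8%, and the difference of the 4598 regions to them was -4.28 points (-5.78 to -2.76). The median distance to the nearest coding TSS was 26.1 kb (25.1 to 27.5 kb), compared with 22.8 kb for regions in all 3 lists, 49.1 kb for those in mock alone and 72.4 kb for windows across the genome. Within 10 kb of a start lay 27.1% of the regions, and within 100 kb 81.9%. A non-coding gene started within 1 kb of 437 regions, or 9.50%, compared with 10.5% of the regions in all 3 lists and 4.34% of those in mock alone. For 336 of the 437 regions the gene was a long non-coding RNA gene.

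Some of the regions lay close together. Another of the 4598 regions lay within 10 kb of 16.4% (15.4 to 17.5%) of them, while the same number spread evenly over each chromosome would give 4.38%. The distal regions in mock alone, which are far denser, stood at 34.0% against 26.6% on the same reckoning, and those in all 3 lists at 13.4% against 0.723%. Linking neighbours within 10 kb gave 345 groups of 2 or more regions, 51 of them with 3 or more. The other 3843 regions stood alone.

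The largest group was inside MBP, which encodes myelin basic protein and, from an upstream start, the Golli proteins made in blood cells. It held 6 intronic regions in 25.2 kb, at chr18:74811451-74836650. Their mock peaks measured 550, 150, 300, 450, 450 and 250 bp, and their Ara-C peaks 250, 150, 450, 150, 950 and 150 bp, in order along the chromosome. The wider peak was thus in mock for 3 of them, in Ara-C for 2, and neither for 1. No DNR peak lay in that span. A second group in the same gene, at chr18:74766301-74779400, held 5 regions in 13.1 kb with 1 DNR peak between them. Altogether 12 regions were nearest to MBP, at 44.3 per Mb of the DNA nearest to this gene, and all were intronic.

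The other group of 5 lay at chr17:56410501-56416150, upstream of TSPOAP1 and over its antisense gene TSPOAP1-AS1. Its mock peaks measured 400, 200, 300, 150 and 250 bp, and its Ara-C peaks 450, 150, 200, 400 and 150 bp. One DNR peak fell between them, and each of the 5 regions had one within 2700 bp. A further 7 groups held 4 regions each. The one nearest to FRMD8 in chr11:65183851-65195100 overlapped NEAT1, the long non-coding RNA that builds paraspeckles, and had no DNR peak in its span. Those at ST3GAL3, at SLX4IP and between 88.1 and 95.04 kb from IFNGR1, the interferon gamma receptor gene, also had none in theirs. The group at SMAD7, an inhibitor of TGF-β signalling, had 2 and that at TRIM27 had 3. The last group, nearest to ZNF33B but at least 721610 bp from it, lay 33.0 kb from an assembly gap with 13 DNR peaks in 19.2 kb, so that DNR peaks were frequent there outside the 4 regions.

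Regions near long assembly gaps differed from the rest in this respect. Within 1 Mb of a gap of at least 1 Mb lay 0.935% of the 4598 regions and 8.21% of those in all 3 lists, and only 48.3% (38.2 to 58.5%) of the distal mock and Ara-C regions there lacked a DNR peak. Away from gaps, 89.9% lacked one, and the motif shares stood at 9.66% for the CTCF core and 3.75% for PU.1, against 15.8% and 1.36% in the regions in all 3 lists. The RUNX letters stood at 8.43% (7.66 to 9.27%) against 6.03% (4.28 to 8.43%), with overlapping intervals, and the C/EBP letters at 1.41% against 0.778%.

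Density differed between chromosomes, and not only with that of the mock peaks. Chromosome 22 had 4.94 regions per Mb, chromosome 19 had 3.49, chromosome 13 had 3.21 and chromosome X had 0.261, with a median over the autosomes of 1.71. Chromosome 13 had 38.0 distal mock regions per Mb, the highest of all, chromosome 19 had 14.6 and chromosome X 1.77. As a share of the distal mock regions the 4598 regions reached 23.9% (21.1 to 27.1%) on chromosome 19 and 8.43% (7.57 to 9.38%) on chromosome 13. The copy number of each chromosome in these cells was not measured here, and its part in these densities was not tested.

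The 4598 regions were nearest to 3176 of 19812 coding genes, or 16.0%, and 2331 of these genes had 1 region. The genes with most regions fell into different kinds when the DNA nearest to each was taken into account. GPC5, a cell surface proteoglycan gene on chromosome 13, had 15 regions and the transcriptional co-regulator gene CITED2 had 12, but spread over 2.78 and 1.42 Mb, that is 5.40 and 8.45 per Mb. SPRY2, an inhibitor of receptor tyrosine kinase signalling, had 11 at 5.00 per Mb, and the chromosome 13 genes SLITRK5, DAOA, DIAPH3 and PCDH9 had between 9 and 10 at 2.87 to 6.17 per Mb. Around these genes mock-only regions were many, for instance 153 nearest to GPC5 and 118 nearest to PCDH9.

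The other genes at the head of the list had regions packed into less DNA. The histone gene H2BC13 had 9 at 53.7 per Mb and the neighbouring zinc finger gene ZNF184 had 11 at 52.4 per Mb. TRIM27, a ubiquitin and SUMO ligase of the same part of chromosome 6, had 8 at 39.3 per Mb, and 4 further regions nearest to it were in all 3 lists. IRF2BP2, a co-repressor gene, had 9 at 26.6 per Mb, and ZFP36L2, which encodes an RNA-binding protein that promotes mRNA decay, had 10 at 25.01 per Mb. Mock-only regions near ZNF184 and ZFP36L2 numbered 2 and 4. PTPRC, which encodes the leukocyte phosphatase CD45, had 8 at 10.8 per Mb, all intergenic and 137.8 kb or more from its start. DAD1 and MTRNR2L6 also had 8 each.

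Genes of the myeloid lineage were nearest to a region more often than coding genes at large. The lists were chosen with earlier results of these data known, so their shares are descriptions only. Of 25 myeloid transcription factor genes, 17 had at least 1 region, or 68.0% (48.4 to 82.8%), with 39 regions in all, beside 16.0% of all coding genes. These genes lie in wide stretches of DNA, with a median of 0.165 Mb nearest to each against 0.0606 Mb over all coding genes, and 88.0% of them were nearest to a mock-only region, beside 49.2% of all coding genes. Their share was thus above that of all coding genes for mock-only regions too. Neuronal adhesion and synapse genes, with a median of 1.77 Mb, had a region in 2 of 20, although 19 of the 20 were nearest to a mock-only region.

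Among the factors, IKZF1, the lymphoid and myeloid zinc finger factor Ikaros, had 6 regions. They lay from 37.0 to 90.6 kb from its start, with 5 upstream and 1 in an intron. The mock peaks, from upstream to downstream, measured 350, 400, 300, 250, 150 and 250 bp, and the Ara-C peaks 500, 200, 300, 200, 150 and 250 bp. MYB, a progenitor factor, had 5 regions between 10.7 and 142 kb away, 2 of them in introns of the neighbouring gene AHI1 and 1 of these with the PU.1 letters. CEBPB, LMO2 and RUNX1 had 3 each, and SPI1, CEBPE, ERG, GFI1 and ZEB2 had 2 each. EGR1, ETV6, FLI1, KLF4, NFE2 and TAL1 had 1 each. The NFE2 region, 3.401 kb upstream, had peaks of 500 bp in mock and 450 bp in Ara-C, and the 3 LMO2 regions were at least 134 kb from any DNR peak. The CEBPE region 6.34 kb downstream had peaks of 550 and 400 bp and a DNR peak 0.55 kb away.

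Granule protein genes had a region in 6 of 14, or 42.9% (21.4 to 67.4%). Of the 14 genes, 57.1% were nearest to a mock-only region, beside 49.2% of all coding genes. MPO had 5 of the 4598 regions, the widest of which is described above. The others were 2 of 400 and 550 bp in the gene's first part, with mock peaks of 400 and 550 bp and Ara-C peaks of 200 bp each, 1 of 450 bp lying 4.03 kb upstream, and 1 of 200 bp lying 23.5 kb upstream in a TSPOAP1 intron. DNR peaks came within 0.1 kb of 1 of these and within 0.65 kb of another. SRGN, the granule proteoglycan serglycin, had 3 regions upstream of its start, RNASE2 and RNASE3, the eosinophil ribonucleases, had 2 each, and BPI and LYZ had 1 each. One of the RNASE2 regions held the CTCF core.

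Myeloid surface receptor genes had a region in 10 of 24, or 41.7% (24.5 to 61.2%). Of the 24 genes, 62.5% were nearest to a mock-only region, beside 49.2% of all coding genes. Beside PTPRC, the adhesion receptor gene CD44 had 4 of the 4598 regions, 3 of them upstream. CSF3R, the G-CSF receptor, and FCGR2A, an Fc receptor, had 2 each. CD14, CSF1R, CXCR4, FLT3, ITGAM and ITGB2 had 1 each. The region nearest to CSF1R, the M-CSF receptor gene, lay 16.8 kb upstream in an intron of PDGFRB, with a mock peak of 150 bp and an Ara-C peak of 450 bp. The CXCR4 region, 17.5 kb upstream, had peaks of 200 and 450 bp.

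The other lists were close to the share of all coding genes. The NF-kB pathway and its targets had a region at 5 of 24 genes, or 20.8% (9.24 to 40.5%). TNFAIP3, the feedback inhibitor A20, had 6 of the 11 regions, between 60.5 and 162 kb away, and CXCL8, the chemokine IL-8, had 2 upstream. BCL3, IKBKE and MAP3K8 had 1 each. The p53 and DNA damage genes stood at 5 of 25, with 3 regions downstream or upstream of BTG2, 2 at BBC3, which encodes the death protein PUMA, and 1 each at GADD45A, PPM1D and TNFRSF10B. The widest of the BTG2 regions had a mock peak of 700 bp and an Ara-C peak of 450 bp. Cell cycle genes stood at 4 of 23, with 4 intronic regions in CCND3, the cyclin D3 gene, and 1 each at CCND2, CDC25A and CDKN2A. A DNR peak lay 0.05 kb from one of the CCND3 regions.

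Genes of the SUMO pathway itself had a region in 3 of 21, or 14.3% (4.98 to 34.6%), among them SUMO4 and the protease gene SENP2. CTCF and cohesin genes had a region in 3 of 15, namely PDS5B, STAG1 and WAPL. In the neuronal list the regions were 9 at PCDH9 and 1 at OPCML. A nearest gene is a statement about position, and no expression value is given here.

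**Figure D5:**
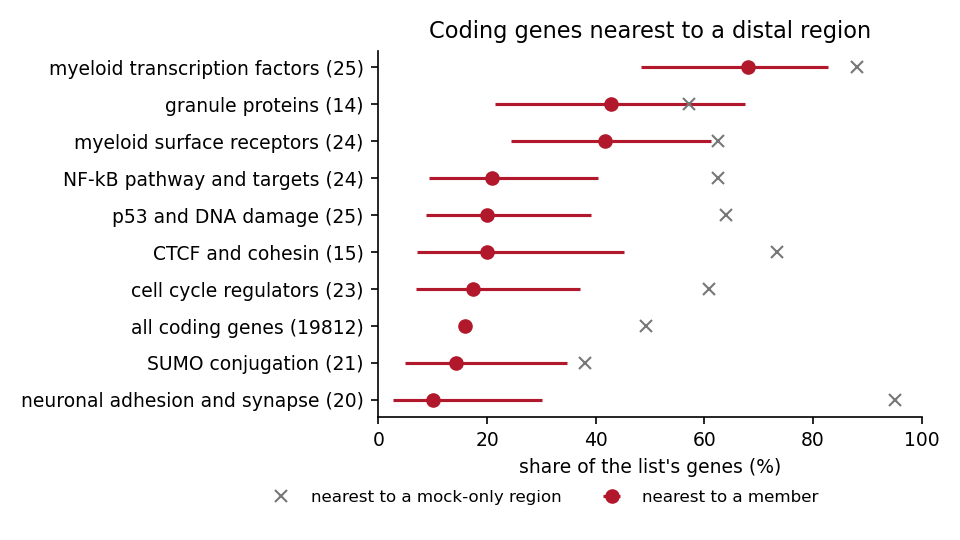
Share of the coding genes of each list (%, number of genes in parentheses) that are nearest to at least 1 of the 4598 regions (red points, 95% Wilson intervals) or to at least 1 distal mock-only region (grey crosses). Myeloid transcription factors stand at 68.0% against 16.0% of all coding genes, and neuronal genes at 10.0%.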

How the data were processed

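SUMO-2/3 ChIP-seq was done in HL-60 cells in 3 conditions, with 3 biological replicates pooled per library. The deposited files are peak lists of the authors whose only values are positions (hg19) in bp. Per the labels, reads were processed with CASAVA 1.8.2, and the file headers and names describe reads extended to 210 bp (220 bp for DNR), 50 bp bins, scaling, background subtraction and calls of at least 32 over runs longer than 100 bp with gaps up to 100 bp. The pile-up limit was 5 for mock and 4 for Ara-C and DNR, so the lists were not made with identical settings. Scaling and the calling value decide which weak regions are listed.

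List ends were read as one past the last base, since neighbouring bins touch, and positions were made 1-based. Peaks were merged in Python 3.11.15, and bedtools 2.31.1 gave the same 139091 regions with 0 differing in pattern. Merging, motif search and neighbour counts recovered the planted answers on simulated data. TSSs, exons and introns came from GENCODE 44 coding transcripts of the basic set on GRCh37. Comparator windows of 200 bp were placed every 2 kb. Exact motif letters were searched on both strands with pysam 0.24.0. No sequence of chromosome 8 is shown. Intervals are Wilson for shares, Newcombe for differences and order statistics for medians. They cover counting error only, and neighbouring regions are not independent. The named genes are the 15 (with ties) nearest to most regions, those of the widest 10, those in the largest groups (all 10 of at least 4 regions, since 7 tied) and list genes with a region. The region set, gene lists and motifs were chosen with earlier results of these data known. The 8 main values were recomputed under 12 other settings. Some named items of the lists are not reported here.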

Additional observations from a re-analysis of the deposited data

Results flagged for a closer look

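The left-out 10 Mb part of chromosome 8 held 221 further distal regions with a mock and an Ara-C peak and no DNR peak, and they enter none of the values of the report. The left-out ends of the chromosomes held 107 more. Both counts come from parts of the lists left out of the report, and the main values that moved when these parts were kept in are given with the other settings.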

How the results depend on the processing

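The 8 main values (the number of regions, the share without a DNR peak, median width, GC content and TSS distance, and the shares with the CTCF core, in introns and with a neighbour within 10 kb) were recomputed under 12 settings. Of 68 recomputed values, 40 stayed within the interval of the reported value or, for the number, within 1.5 times of it, and 28 moved. With peaks of at least 200 bp there were 2890 regions, with 90.5% lacking a DNR peak, a width of 350 bp, a GC content of 51.8%, a distance of 24.9 kb, and shares of 12.5% with the core, 36.1% in introns and 14.1% with a neighbour. Merging within 500 bp gave 86.8%, 400 bp, 48.6%, 29.3 kb, 8.65% with the core and 40.05% in introns. Requiring the mock and Ara-C peaks to share 50% of the shorter gave a GC content of 51.1% and 14.1% with a neighbour. Requiring no DNR peak within 500 bp gave 85.8%. A limit of 2 kb moved the distance to 28.5 kb. Counting the starts of all annotated genes gave a GC content of 49.8%, 28.3 kb and 13.5% with a neighbour. Keeping the left-out parts gave 86.8% without a DNR peak, 27.9 kb and 19.7% with a neighbour. Leaving out regions within 1 Mb of assembly gaps moved none of the 8. GC content over 200 bp was 51.5%, the core in 200 bp stood at 9.68% and with 1 mismatch at 30.4%, and 40.8% had a neighbour within 50 kb. The settings redefine the regions, and no other cause was tested.

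With 1 pooled library per condition and no peak heights, a region just under the calling value in DNR cannot be told from one without signal. No paired analysis was possible because a condition holds a single library.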

Other observations

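A motif added after the nearest genes were seen concerned transfer RNA genes, which carry an internal B box and are transcribed by RNA polymerase III. The part GTTCGANTC of the B box lay in 29 of the 4598 regions, or 0.631% (0.440 to 0.904%), against 2.32% (1.36 to 3.93%) of the distal regions in all 3 lists, 0.0594% of those in mock alone and 0.0563% of windows across the genome. Of the 29, 11 were on chromosome 6, with 3 nearest to ZNF184 and 2 nearest to TRIM27. Of the 42 distal mock and Ara-C regions with these letters, 69.0% (54.0 to 80.9%) had no DNR peak. Transfer RNA genes were not in the annotation used here.

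Antigen receptor loci also held some of the regions. The 8 regions nearest to MTRNR2L6 included 2 groups of 3 on chromosome 7, over or beside the T cell receptor beta variable segments TRBV12-2, TRBV6-4 and TRBV7-3, with 1 DNR peak in the span of each. HL-60 is not a T cell line, and receptor expression was not measured here.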
